A study of Homo sapiens with 6 samples.

Results

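The heat shock proteins and chaperonins are the genes that fold newly made and damaged proteins. They were taken here as every protein-coding gene whose symbol begins with HSPA, HSPB, HSPD, HSPE, HSPH or HSP90 followed by the letter A or a digit, or is of the form DNAJA, DNAJB or DNAJC with a number, or is TCP1 or a CCT subunit gene. This gave 80 genes of the 62700 in the table. A further 81 rows with matching symbols were left out because GENCODE 29 does not list them as protein-coding. The pattern also takes HSPBAP1, a gene named for its product's association with HSPB1, and the readthrough genes HSPE1-MOB4 and HSPB2-C11orf52. It does not take HSP90B1, the HSP90 of the endoplasmic reticulum (ER), whose values are given apart.

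The genes were measured in A549, an established human lung adenocarcinoma line with epithelial features. Both groups were grown in RPMI-1640 medium with fetal bovine serum. The sgControl group holds 3 libraries from cells with a control guide RNA, labelled wild type, and the sgH2AC19 group holds 3 libraries whose genotype label is a guide against H2AC19, one of the many gene copies that encode histone H2A. Whether the guide cut or silenced the gene, whether these cells are 1 clone or a pool, and whether replicates are separate cultures, is not given in the sources used here, so every p-value is set against library spread alone, and that spread may be technical.

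H2AC19 was listed at 0 FPKM (fragments counted on a gene, divided by its length and by the library's total) in all 6 libraries, as was its near-identical copy H2AC18, so neither the guide's effect nor the labels could be checked on the target. Recovered read totals ran from 35681162 to 45738439 per library. On the log2 scale the second principal component, with 18.2% of the variance, put sgH2AC19 replicate 3 at −16 against 8.09 and 8.32 for replicates 1 and 2. The 7 markers of the epithelial list summed to 606 to 642 FPKM in sgControl and 778 to 817 in sgH2AC19, led by the keratin genes KRT8 and KRT18. Within it 6 rose, among them CDH2, which is also a mesenchymal marker. KRT19 fell from 59.9 to 43.5 FPKM (log2 fold change −0.45, limma adjusted p = 0.0023). All 7 were thus called by limma at an adjusted p under 0.05, against 23.1% of all genes tested. All 6 endothelial markers, 4 of 6 fibroblast markers and 5 of 6 leukocyte markers were below 1 FPKM in every library, and CD3E was at 0. The fibroblast markers summed to 3.29 to 3.76 FPKM in sgControl and 5.17 to 6.03 in sgH2AC19, and the leukocyte markers to 1.69 to 2.32 and 2.25 to 3.22. The part of these differences in the results below was not tested, and in bulk RNA fewer cells of a type and less RNA per cell cannot be told apart.

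As background, HSP70 proteins bind short hydrophobic stretches of unfolded chains and release them through cycles of ATP use. DNAJ proteins (also called HSP40) bring substrates to HSP70 and stimulate its ATPase, and the HSP110 proteins exchange its nucleotide. HSP90 acts later, on kinases, steroid receptors and other clients. Chaperonins are barrel-shaped complexes that enclose a chain while it folds: HSP60 with its lid HSP10 in mitochondria, and the 8-subunit CCT (TRiC) ring in the cytosol, which folds actin and tubulin. In a heat shock the transcription factor HSF1 binds repeated GAA units, the heat shock element, while the unfolded protein response acts on ER chaperone genes through the ER stress element. Cancer cells are known for high levels of many of these proteins.

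The promoters were searched for exact strings of these elements, so an element with a mismatch or outside the window was not found. RefSeq (GRCh38.p14) windows from 250 bases before to 50 after the start were found for 72 of the 80 genes. The 3-unit heat shock element, searched on both strands as GAANNTTCNNGAA, was in the windows of 4 members, DNAJA1, DNAJB6, HSPA6 and HSPA8, which is 5.56% of them and compares with 0.49% of all 35116 windows. The shorter GAANNTTC, which is contained in the first, was in 12 members (16.7%, against 6.77% of all windows), among them HSPA1A and HSPA1B. The opposite pair TTCNNGAA, also searched on both strands, was in 10 (13.9%, against 7.74%). The ER stress element, searched as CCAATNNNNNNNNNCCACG on both strands, was in 1 member, HSPA5, and in 0.0769% of all windows. The sites are printed because the stress-inducible genes of this set are read against them below, with the fixed letters of the element in capitals.
HSPA6, chr1:161524458-161524486, plus strand: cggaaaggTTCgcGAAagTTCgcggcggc
DNAJB6, chr7:157336865-157336893, plus strand: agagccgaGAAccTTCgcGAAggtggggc
DNAJA1, chr9:33025268-33025296, plus strand: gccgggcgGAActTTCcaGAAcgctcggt
HSPA8, chr11:123062346-123062374, minus strand: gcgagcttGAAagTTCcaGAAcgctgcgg
HSPA8, chr11:123062171-123062199, minus strand: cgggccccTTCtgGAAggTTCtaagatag
HSPA1A, chr6:31815429-31815452, plus strand: aaaccctgGAAtaTTCccgacctg
HSPA1B, chr6:31827625-31827648, plus strand: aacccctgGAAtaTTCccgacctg
HSPA5, chr9:125241386-125241414, minus strand: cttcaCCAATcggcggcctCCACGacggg

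Few chaperone genes changed in the sgH2AC19 libraries: 53 of 63 tested were not called. HSPD1, CCT5, DNAJC1, HSPA2, DNAJC13, DNAJB12 and HSPA14 rose, and CCT8, DNAJB1 and DNAJC24 fell (limma on log2(FPKM + 1), adjusted p under 0.05). These 10 are 15.9% of the 63 members that reached 1 FPKM in 3 or more libraries, where 23.1% of all 12871 genes tested were called. The 7 rises compare with 12.0% of all genes called up and the 3 falls with 11.0% called down. Changes were small on the log2(FPKM + 1) scale, which understates those of low genes. The median log2 fold change of the 63 was −0.02, as against −0.01 over all genes tested, and the range was −0.40 to 0.46. Of the called members 0 moved by 0.5 or more, as 557 of the 2967 called genes did. HSPA2, the furthest rise, ran from 0.36 to 0.55 over the 12 alternative settings. The groups of 3 libraries did not overlap for 23 members, in a table where this held for 43.2% of genes. The other 17 members were not tested for low values, and 5 of these were listed at 0 in all libraries. None of the 63 reached 1 FPKM in every library of 1 group and in no library of the other. CCT6B, at 0.978, 0.903 and 1.08 FPKM in sgControl and 1.78, 1.79 and 1.01 in sgH2AC19, needed its sgH2AC19 libraries to pass the filter. The counts were 11 up and 4 down without sgH2AC19 replicate 3, where 3429 genes were called in all. They were 5 up and 1 down without sgControl replicate 1, 3 and 0 without replicate 2 and 4 and 2 without replicate 3, where 1663, 1513 and 1632 genes were called. With all genes above 0 FPKM tested they were 4 up and 1 down, of 1553 called.

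**Figure D1:**
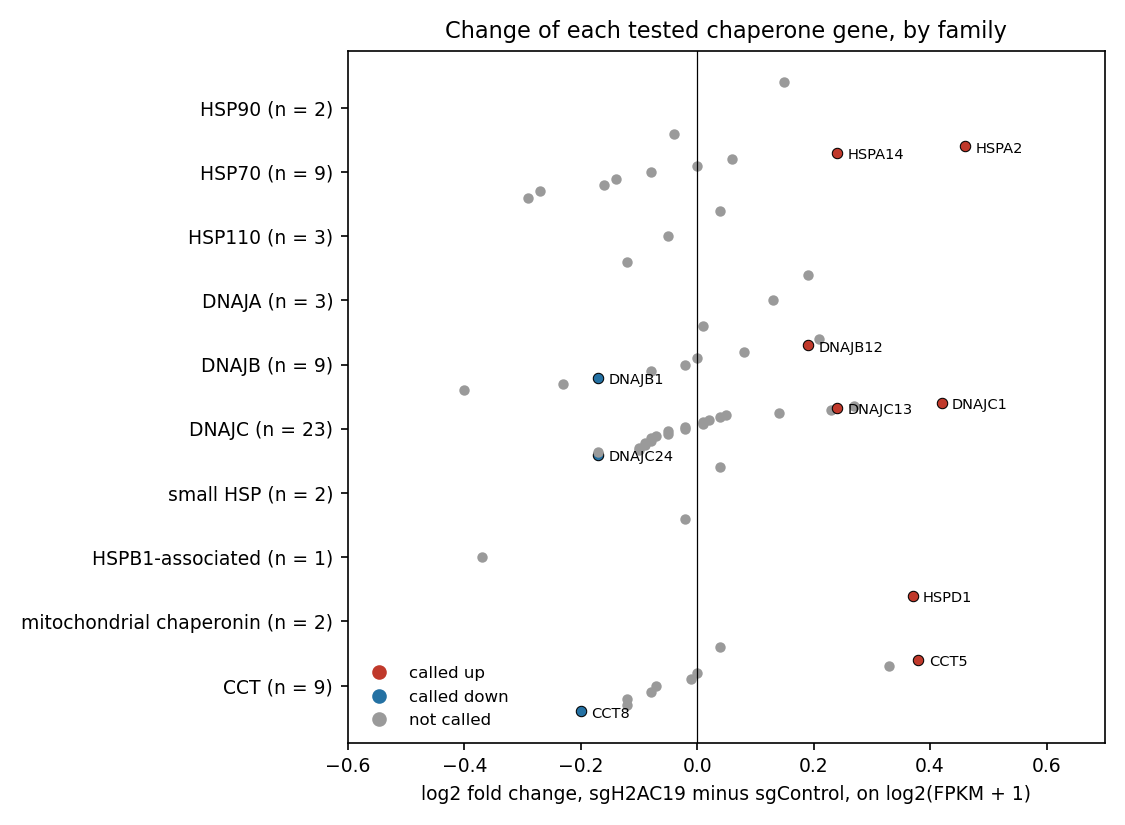
Log2 fold change (x axis, sgH2AC19 minus sgControl on log2(FPKM + 1)) of the 63 tested chaperone genes by family (y axis), 1 point per gene, with called genes coloured and named. Most points lie between −0.2 and 0.2, and the furthest rise is HSPA2 at 0.46.

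The set as a whole was a steady and abundant part of the transcriptome. Summed FPKM over the 80 genes was 2601, 2588 and 2566 in sgControl and 2618, 2669 and 2534 in sgH2AC19, so the groups overlapped. This was 0.808% to 0.86% of all FPKM. The most abundant member was HSP90AB1, and the 10 most abundant together held 1679 to 1767 FPKM per library. By recovered reads each tested member had at least 152 reads in every library and the called members at least 732.

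HSP90, the last stage of client maturation, showed no called change. HSP90AB1, the constitutive cytosolic form, was at 434, 428 and 443 FPKM in sgControl and 432, 426 and 413 in sgH2AC19. Its log2 fold change was −0.04 (95% interval −0.12 to 0.05, adjusted p = 0.498). HSP90AA1, the inducible form, was at 263, 234 and 259 against 267, 277 and 293, so that all sgH2AC19 libraries were above all controls, by a narrow margin (0.15, 95% interval 0.01 to 0.28, adjusted p = 0.109). The ratio of HSP90AA1 to HSP90AB1 was 0.605, 0.547 and 0.584 in sgControl and 0.618, 0.65 and 0.708 in sgH2AC19, again without overlap. Reads of HSP90AA1 can also match its processed pseudogene HSP90AA2P, which was at 6.14 ± 0.491 and 6.94 ± 0.0244 FPKM (SD, n = 3 each), so values of either are uncertain to that extent.

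Among 12 HSP70 genes 9 were tested, and 2 rose, which is 22.2% called, close to the 23.1% of all genes tested. HSPA2, a form best known from spermatogenesis, was at 3.84, 3.37 and 3.57 FPKM in sgControl and at 5.12, 4.63 and 6.23 in sgH2AC19. All sgH2AC19 libraries were above all controls, and this was the furthest rise of any member (log2 fold change 0.46, SE 0.0955, adjusted p = 0.0157). Leaving out sgControl replicate 2 or replicate 3 ended its call (adjusted p = 0.0597 and 0.052), as did testing every gene above 0 FPKM (0.0691). HSPA14, a ribosome-associated HSP70, was at 9.63, 8.65 and 9.81 against 11.2, 10.4 and 12.1 (0.24, SE 0.0706, adjusted p = 0.0482). Its margin was thin: both scaling alternatives (0.0645 and 0.0587), testing all genes above 0 FPKM (0.145) and leaving out any library but sgH2AC19 replicate 2 (0.0793 to 0.145) ended the call. In GENCODE 29 HSPA14 overlaps its divergent neighbour CDNF by 412 bases, and CDNF rose from 1.90 ± 0.212 to 3.28 ± 0.483 FPKM (0.55, adjusted p = 0.00918). Whether reads were assigned by strand is not given in the sources used here, so reads in the overlap cannot be told apart. CCT4, CCT6B, DNAJB9, DNAJC2, DNAJC30 and HSP90AA1 also overlap a divergent neighbour there, by 81 to 620 bases, and the same holds for them.

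Of the other HSP70 genes of the cytosol, HSPA8, HSPA1A and HSPA1B were not called. HSPA8 (HSC70), the housekeeping form, was at 178, 165 and 180.0 FPKM in sgControl and 165, 154 and 156 in sgH2AC19, overlapping at 165 (−0.14, adjusted p = 0.0868). HSPA1A, the classic heat-inducible gene, was at 7.97, 7.69 and 6.15 against 5.86, 5.61 and 5.72, lower in all sgH2AC19 libraries (−0.29, SE 0.0873, adjusted p = 0.0506), and it passed without sgControl replicate 3 (−0.39, adjusted p = 0.0123). Its copy HSPA1B was at 5.42, 4.10 and 3.43 against 3.61, 3.06 and 3.45 (−0.27, adjusted p = 0.183). The 2 genes are nearly identical and share reads; their sum was 13.4, 11.8 and 9.58 FPKM in sgControl and 9.47, 8.67 and 9.17 in sgH2AC19. HSPA6, a strictly inducible gene with a 3-unit element, was at 1.55, 0.924 and 0.398 in sgControl and 0.353, 0.19 and 0.715 in sgH2AC19, too low to be tested. Of the other genes with a 3-unit element, DNAJA1 was at 80.5, 65.4 and 71.4 against 85.5, 83.8 and 79.0 (0.19, adjusted p = 0.11, and 0.0398 without sgControl replicate 1), and DNAJB6 at 6.66, 6.61 and 6.61 against 5.98, 5.70 and 4.92 (−0.23, adjusted p = 0.0505). DNAJB6 passed with either scaling alternative (0.0316 and 0.0354) and without sgH2AC19 replicate 1 (0.0423) or replicate 3 (0.0477). Members with the element had fold changes of both signs. Neither GAANNTTC nor TTCNNGAA was in the windows of the 5 called-up and 2 called-down members that have one. One or the other was in 13.5% of all windows and in those of 11 of 58 tested members. With so few called members no conclusion is drawn from this.

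The 3 HSP110 genes, nucleotide exchange factors for HSP70, were not called. HSPA4 was at 60.5, 58.8 and 59.5 FPKM in sgControl and 60.5, 62.7 and 60.5 in sgH2AC19, and HSPA4L at 3.26 ± 0.179 and 3.10 ± 0.15 (SD, n = 3 each). Both overlapped between groups. HSPH1, which is heat-inducible, was at 26.0, 23.0 and 24.5 against 22.5, 22.6 and 21.9, with no overlap (−0.12, adjusted p = 0.128). The mRNA level of HSF1 was 10.8 ± 0.289 and 10.9 ± 0.568 FPKM (0.01, adjusted p = 0.897), and 0 of the 5 heat shock factor and HSBP1 genes were called by limma, against 23.1% of all genes, with 0 higher and 1 lower at an unadjusted p under 0.05, against 37.6%. That 1 was HSBP1L1, named after its value was seen.

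Of the mitochondrial chaperonin genes HSPD1 rose and HSPE1 was not called. HSPD1, which encodes the HSP60 barrel, was at 75.7, 73.1 and 75.7 FPKM in sgControl and 96.7, 99.6 and 94.4 in sgH2AC19. The groups were far apart relative to their spread, and the rise (0.37, SE 0.0401, adjusted p = 0.00161) kept its call in all 12 alternatives. HSPE1, which encodes the HSP10 lid, was at 10.7, 11 and 12.1 against 12.2, 11.3 and 11.1 (0.04, 95% interval −0.11 to 0.18, adjusted p = 0.712). The ratio of HSPD1 to HSPE1 was 7.07, 6.66 and 6.24 in sgControl and 7.89, 8.78 and 8.46 in sgH2AC19, with no overlap. On the log2 scale the ratio differed by 0.33 (exact permutation test, two-sided, p = 0.1, the smallest that 3 against 3 libraries allow). These genes lie head to head, and the 104 bases between their RefSeq starts (GRCh38.p14, written on the HSPD1 strand, upstream of both genes) are shown because one partner rose and the other was not called.
HSPD1 to HSPE1, chr2:197500275-197500378, minus strand: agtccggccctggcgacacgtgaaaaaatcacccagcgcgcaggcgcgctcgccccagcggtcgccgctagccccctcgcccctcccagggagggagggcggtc

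Values of both genes are uncertain because they have many processed copies: 18 HSPD1 and 26 HSPE1 pseudogenes are in the table. HSPD1P1 was at 21.7, 19.4 and 19.8 FPKM in sgControl and 26.8, 28.1 and 26.8 in sgH2AC19, a log2 fold change of 0.41 (SE 0.0535, adjusted p = 0.00301) close to that of HSPD1. The HSPE1 pseudogenes together held 13.5 to 17.8 FPKM per library, above the FPKM of HSPE1 itself. Each FPKM is divided by the length of its own gene, so this does not say which held more reads. Whether reads of HSPE1 were lost to these copies was not tested. HSPA9, the mitochondrial HSP70, was at 94.0, 96.3 and 88.1 against 91.5, 96.2 and 76.2 (−0.08, adjusted p = 0.535). Of the other mitochondrial members, DNAJA3 was at 13.8 ± 0.403 and 13.9 ± 1.43 FPKM. DNAJC30 was at 3.23, 2.88 and 3.20 against 4.22, 4.33 and 3.36 (0.27, adjusted p = 0.062), and it passed without sgH2AC19 replicate 3 (0.36, adjusted p = 0.00828) and with median-ratio scaling (0.0466) or upper-quartile scaling (0.0476). Of the 7 mitochondrial members tested, only HSPD1 was called, which is 14.3% against 23.1% of all genes tested.

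In the cytosolic chaperonin, 1 subunit gene rose while others were lower. CCT5 (epsilon) was at 42.6, 39.6 and 42.2 FPKM in sgControl and 53.9, 54.3 and 54.4 in sgH2AC19, a clear separation (0.38, SE 0.043, adjusted p = 0.00182, called in all 12 alternatives). CCT8 (theta) fell, from 63.5, 66.0 and 65.7 to 58.2, 56.1 and 55.6 (−0.20, SE 0.0399, adjusted p = 0.0143). The fall of CCT8 was not called without sgControl replicate 2 (0.0593) or replicate 3 (0.0619). CCT3, CCT4 and CCT7 were lower in all sgH2AC19 libraries than in all controls without being called (−0.07, −0.12 and −0.12, adjusted p = 0.22, 0.0836 and 0.0677). TCP1 (alpha), CCT2 and CCT6A overlapped, at −0.08, −0.01 and 0.00. CCT6B, a testis-enriched form of zeta, was near 1 FPKM in the controls and at 1.78, 1.79 and 1.01 in sgH2AC19 (0.33, adjusted p = 0.123), and was called only without sgH2AC19 replicate 3 (0.49, adjusted p = 0.00715).

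The 8 CCT subunits occur once each in a ring, but their FPKM were not equal. FPKM depends on the gene length used, and the lengths that gave whole reads were 5638 bases for CCT5, 4883 for TCP1 and 2701 for CCT4. Recovered reads per library were 8702 to 13890 for CCT5 and 9507 to 11871 for CCT4. The order of subunits by FPKM is thus not an order of mRNA levels. In sgControl the values ran from 41.4 ± 1.64 FPKM for CCT5 and 41.6 ± 1.97 for TCP1 to 105 ± 3.29 for CCT4. Those of CCT5 and TCP1 did not differ beyond their spread. CCT4 was at 103, 102 and 108 in sgControl and 96.1, 98.6 and 94.2 in sgH2AC19, and CCT6A at 95.3, 91.8 and 100.2 against 96.3, 101 and 90.6. In sgH2AC19 TCP1 was the lowest, at 39.2 ± 0.743, and CCT5 stood at 54.2 ± 0.296, next to CCT8 at 56.7 ± 1.36. The share of CCT5 in the summed FPKM of the 8 genes was 7.19%, 6.8% and 6.93% in sgControl and 9.26%, 9.26% and 9.68% in sgH2AC19. All 8 summed to 595 ± 13.9 and 577 ± 12.5 FPKM, which overlapped. Without CCT5 the other 7 summed to 553 ± 12.8 and 522 ± 12.6, with no overlap between groups. CCT5 was left out because its rise had been seen, so the lower sum follows in part from that choice. CCT5 starts 24 bases from the divergent gene ATPSCKMT in GENCODE 29, and the 2 do not overlap. ATPSCKMT, a lysine methyltransferase gene, rose as well, from 2.63, 2.63 and 2.57 to 4.94, 5.25 and 4.74 FPKM (0.73, SE 0.0534, adjusted p = 0.000429).

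**Figure D2:**
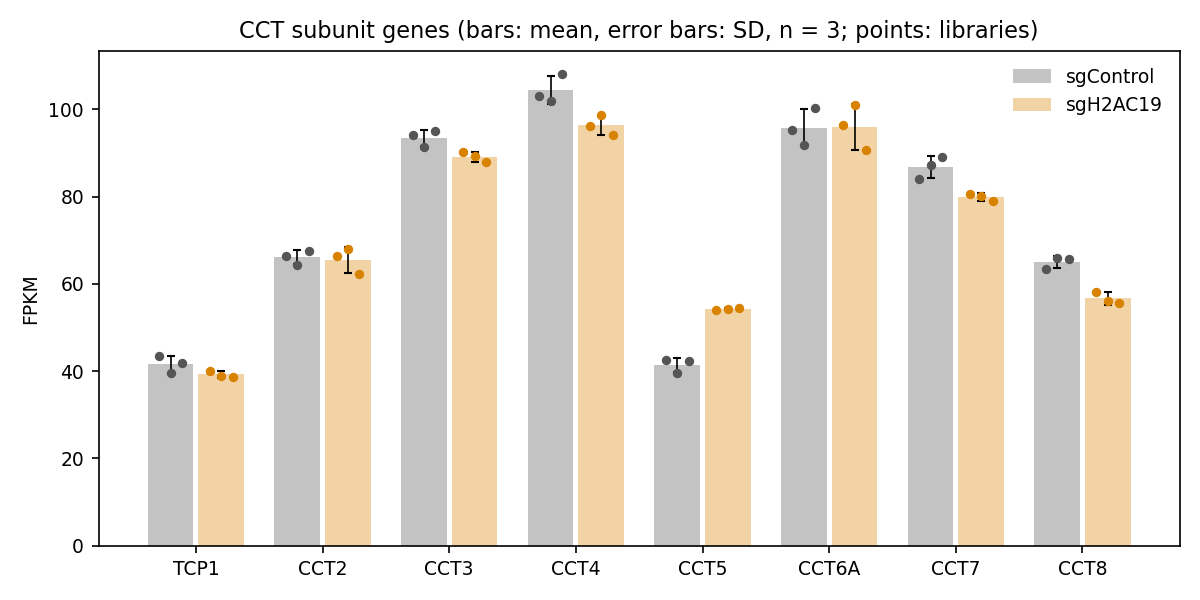
FPKM (y axis, from 0) of the 8 CCT subunit genes (x axis) in sgControl and sgH2AC19; bars are means, error bars SD over 3 libraries, points single libraries. CCT5 is higher in all sgH2AC19 libraries, while CCT3, CCT4, CCT7 and CCT8 are lower.

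How often divergent partners of the members were called depends on the pairs counted, and GENCODE 29 gives pairs partly different from those of RefSeq. Within 1000 bases, 13 RefSeq pairs of a tested member and a tested divergent neighbour were found. HSPD1 with HSPE1 was among them, with HSPE1 counted as the neighbour. Of the 13 neighbours 3 were called, which is 23.1%, the share over all genes tested. That share would be higher with HSPD1, which was called up, counted as the neighbour of HSPE1. No share was computed over the GENCODE 29 pairs, which include called neighbours given below. In 9 pairs neither gene was called. In 3 pairs 1 gene was called. These were HSPD1 with HSPE1, TCP1 with the mitochondrial ribosomal protein gene MRPL18 (−0.25, adjusted p = 0.0105), and DNAJC30 with the ribosome biogenesis gene BUD23 (−0.24, adjusted p = 0.0178). In the 1 pair with both called, DNAJB1 fell and its neighbour TECR rose (0.17, adjusted p = 0.0414). BUD23 was not called without any 1 of the sgControl libraries (0.0582 to 0.0653), nor TECR without any 1 of the 6 libraries (0.0527 to 0.137). CCT5 with ATPSCKMT and HSPA14 with CDNF, pairs in which both genes were called up, come from GENCODE 29 and are not in that count. Nor is PNPLA8, a phospholipase gene that overlaps DNAJB9 by 99 bases there and fell from 13.4 to 10.4 FPKM (−0.33, adjusted p = 0.0212), a call lost without sgControl replicate 1 (0.0599) or 2 (0.0765) or sgH2AC19 replicate 1 (0.0507). The neighbours were chosen for naming with their values in view.

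The DNAJ co-chaperones, which choose the substrates and sites of HSP70, make up 42 of the 80 members. Of 35 tested, 3 rose and 2 fell, which is 14.3% called against 23.1% of all genes tested. DNAJC1, a J protein of the ER membrane that also contacts the ribosome, was at 20.1, 21.7 and 21.3 FPKM in sgControl and 27.2, 30.1 and 28.2 in sgH2AC19. The separation was wide (0.42, SE 0.0527, adjusted p = 0.00246), and the call stood in all 12 alternatives. DNAJC13 (RME-8), which works in endosomal sorting, was at 8.39, 8.29 and 8.99 against 9.92, 10.3 and 10.6 (0.24, SE 0.0501, adjusted p = 0.0165). Its call was lost without sgControl replicate 1 (0.0655) or replicate 2 (0.066). DNAJB12, an ER membrane protein that recruits cytosolic HSP70 in protein degradation, was at 7.76, 7.97 and 7.81 against 9.37, 8.71 and 9.30 (0.19, adjusted p = 0.025). That call was lost without any 1 of the sgControl libraries (0.0695 to 0.0897) or sgH2AC19 replicate 1 (0.071), and with all genes above 0 FPKM (0.0554).

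The 2 falls were small. DNAJB1, the main heat-inducible HSP40 of the cytosol, was at 14.6, 13.5 and 13.6 FPKM in sgControl and 12.1, 12.2 and 12.3 in sgH2AC19. The sgH2AC19 libraries lay close together below all controls (−0.17, SE 0.0459, adjusted p = 0.0348). Only sgH2AC19 replicate 3 could be left out without ending this call; the other 5 left-out fits gave 0.0717 to 0.127, and 0.0684 was found with all genes above 0 FPKM. DNAJC24 (DPH4), which takes part in the diphthamide modification of elongation factor 2, was at 4.49, 4.23 and 4.40 against 3.64, 3.89 and 3.80 (−0.17, adjusted p = 0.0492). It was the call nearest the threshold, and each left-out library ended it (0.0599 to 0.157), as did both scaling alternatives (0.0513 and 0.0502) and testing all genes above 0 FPKM (0.114). Of DNAJA genes, DNAJA2 was at 22.7, 21.7 and 22.2 against 24.2, 25.3 and 23.9 (0.13, adjusted p = 0.0632, and 0.0411 without sgH2AC19 replicate 3). DNAJC8, a spliceosome-associated J protein, was at 31.7, 31.6 and 31.2 against 30.9, 30.4 and 30.1 FPKM, just below the controls (−0.05, adjusted p = 0.423). DNAJC9, a J protein that is also a histone chaperone, was at 5.70 ± 0.201 and 5.88 ± 0.302 (0.04, 95% interval −0.09 to 0.16). DNAJC15, an inner-membrane J protein of mitochondria, did not pass the filter, at 0.371, 0.233 and 0.436 against 0.645, 0.562 and 0.872. DNAJC19 and DNAJC25 were called only without sgH2AC19 replicate 3 (−0.32 and 0.25, adjusted p = 0.0411 and 0.0447).

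**Figure D3:**
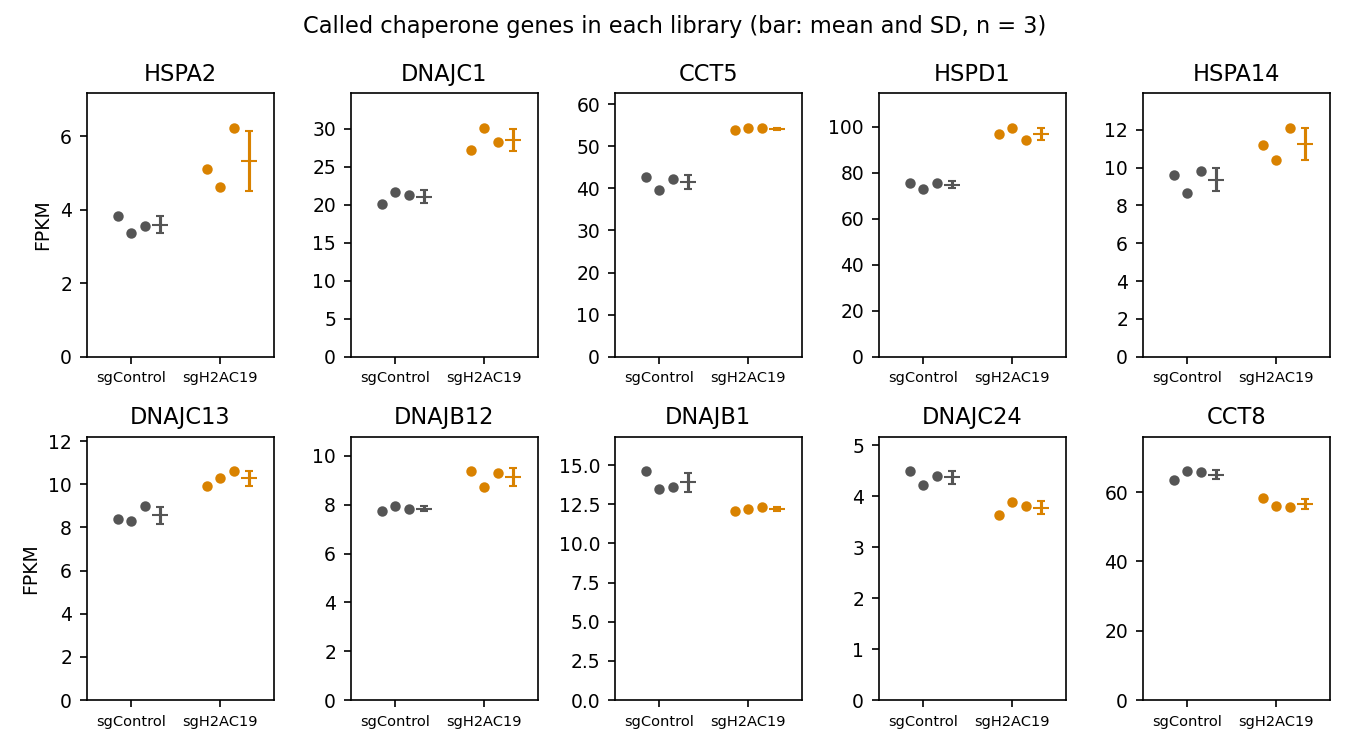
FPKM (y axes, each from 0) of the 10 called chaperone genes in the 3 sgControl and 3 sgH2AC19 libraries (points), with mean and SD beside them. For each gene the points of one group lie wholly above those of the other, by 1.3-fold for CCT5 and by less for DNAJB1.

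In the ER, 12 members were tested, 2 rose (DNAJC1 and DNAJB12, given above) and 0 fell by limma, with 4 higher and 1 lower at an unadjusted p under 0.05, which 37.6% of all genes tested reached. The 2 called are 16.7% of the 12, against 23.1% of all genes. HSPA5 (BiP), the ER HSP70 and, after HSP90AB1, the most abundant member, was at 289, 344 and 262 FPKM in sgControl and 315, 349 and 270.1 in sgH2AC19. The difference was far inside the spread of either group (0.06, 95% interval −0.22 to 0.35, adjusted p = 0.739). HSP90B1 (GRP94), outside the set and named after its values were seen, was at 90.1, 104 and 88.0 against 99.8, 109 and 102 (0.14, adjusted p = 0.179). DNAJB9 (ERdj4), a J protein that restrains the stress sensor IRE1, was at 42.1, 45.7 and 36.0 against 30.3, 36.1 and 27.0, overlapping only at sgControl replicate 3 and sgH2AC19 replicate 2 (−0.40, SE 0.12, adjusted p = 0.0506). It passed without either of those libraries (0.0448 and 0.0291) and with both scaling alternatives (0.0453 and 0.0467). DNAJC3 (p58IPK), a J protein of the ER lumen, was at 17.2, 18.3 and 15.7 against 20.4, 22.4 and 18 (0.23, adjusted p = 0.0986), and passed without sgH2AC19 replicate 3 (0.0246). DNAJB11 (ERdj3) was at 6.37, 6.78 and 5.92 against 7.18, 8.07 and 7.34, with no overlap (0.21, adjusted p = 0.052).

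Several ER members ranked the libraries alike by replicate number. HSPA5, HSPA13, DNAJC3 and DNAJB9 were highest in replicate 2 and lowest in replicate 3 in both groups. This order was seen in 4 of 12 ER members (33.3%), in 1 of 38 members of the cytosol or nucleus (DNAJC2), in the mitochondrial HSPA9, and in 4.42% of all genes tested. It was picked after the values were seen; any order shared by both groups was found in 6 of 12 ER members, 17.5% of all members tested and 18.9% of all genes. HSPA13, at 33.2, 36.4 and 29.9 against 32.6, 37.2 and 29.6 FPKM, differed between numbers and hardly at all between groups (0.00, adjusted p = 0.985). Outside the set the same order was shown by HYOU1, an ER exchange factor, DDIT3 (CHOP), HERPUD1 and EIF2AK3 (PERK), which are 4 of 23 genes of the ER folding and unfolded protein response list. What the number marks is not given in the sources used here, and whether it marks shared handling was not tested.

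**Figure D4:**
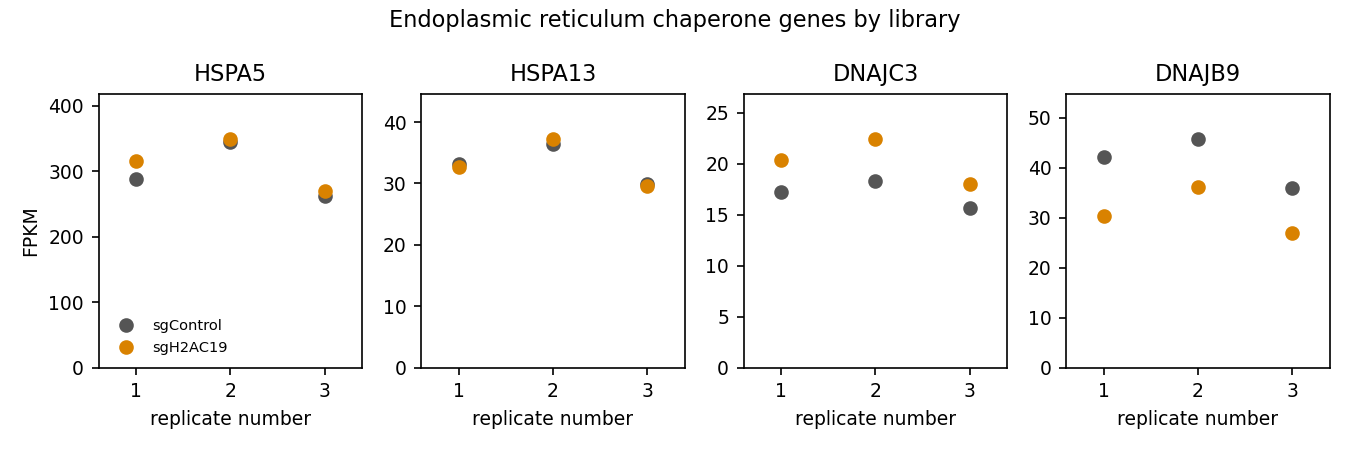
FPKM (y axes, from 0) of HSPA5, HSPA13, DNAJC3 and DNAJB9 by replicate number (x axes), with sgControl and sgH2AC19 as separate points. In both groups replicate 2 is highest and replicate 3 lowest.

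Small heat shock proteins, which hold unfolded chains without using ATP, were represented by HSPB1 (HSP27) and HSPB8. HSPB1 was at 85.7, 90.6 and 88.3 FPKM in sgControl and 82.3, 77.2 and 104 in sgH2AC19, where replicate 3 was above and replicates 1 and 2 below all controls (−0.02, 95% interval −0.26 to 0.22). HSPB8 was at 4.34, 4.44 and 3.30 against 4.14, 4.04 and 4.23 FPKM, within the range of the controls. HSPB2 and HSPB3, known from muscle, were listed at 0. HSPBAP1 was at 3.16, 3.27 and 2.58 against 2.44, 2.19 and 1.67, lower in all sgH2AC19 libraries (−0.37, SE 0.112, adjusted p = 0.0505), and passed without sgH2AC19 replicate 1 (0.0444) and with both scaling alternatives (0.0442 and 0.0458).

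Among cofactors outside the set, AHSA1 rose by more than any member. Of 23 tested HSP90 cofactors 5 rose and 2 fell, 30.4% against 23.1% of all genes (median log2 fold change 0.03). AHSA1, which activates the HSP90 ATPase, was at 23.9, 19.8 and 22.6 FPKM in sgControl and 34.7, 35.0 and 34.4 in sgH2AC19, the furthest change in these lists (0.63, SE 0.0681, adjusted p = 0.00155). UNC45A, a myosin chaperone that binds HSP90, rose from 5.60 ± 0.271 to 7.88 ± 0.233 FPKM (0.43, adjusted p = 0.00217), NUDCD3 by 0.39 and NUDC by 0.25. Of 18 HSP70 cofactors 1 rose and 1 fell, 11.1% against 23.1% of all genes (median −0.07). SIL1, the nucleotide exchange factor of HSPA5, was at 4.18, 4.40 and 4.18 against 5.94, 5.35 and 5.11 (0.30, adjusted p = 0.0148), higher in all sgH2AC19 libraries. SIL1 lost its call without sgControl replicate 1 (0.0557) or replicate 3 (0.0561). NUDC lost it without sgControl replicate 2 or 3 or sgH2AC19 replicate 1 or 2 (0.0616 to 0.0774).

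Prefoldin hands actin and tubulin to CCT, and 2 of the 9 prefoldin and chaperonin cofactor genes fell and 0 rose by limma (median −0.16). This is 22.2% called, close to the 23.1% of all genes, and at an unadjusted p under 0.05, reached by 37.6% of all genes, 5 were lower and 0 higher. VBP1 was at 44.7, 43.2 and 47.1 against 39.1, 40.0 and 37.9 FPKM (−0.20, adjusted p = 0.0232), and PFDN6 at 13.4, 12.9 and 14.2 against 11.5, 11.5 and 12.2 (−0.18, adjusted p = 0.0456). VBP1 was not called without sgControl replicate 1 (0.0722) or 3 (0.0859) or sgH2AC19 replicate 1 (0.0566), nor PFDN6 without any library other than sgH2AC19 replicate 3 (0.066 to 0.148). In the ER folding and unfolded protein response list 6 of 23 rose and 2 fell, 34.8% against 23.1% of all genes (median 0.11). CALR, the lectin chaperone calreticulin, was at 251, 269 and 246 against 331, 341 and 361 FPKM (0.43, adjusted p = 0.00224), and the disulfide isomerase genes PDIA4 and PDIA6 rose by 0.32 and 0.23. EDEM1, which marks misfolded glycoproteins for degradation, fell from 36.0 ± 2.28 to 27.8 ± 1.83 FPKM (−0.36, adjusted p = 0.00956).

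Of 16 genes for mitochondrial import and folding 2 rose and 1 fell, 18.8% against 23.1% of all genes (median −0.07). The matrix protease gene LONP1 was at 15.5, 17.1 and 16.0 against 21.3, 21.6 and 20.7 FPKM (0.37, adjusted p = 0.00332). AFG3L2, an inner-membrane protease gene, rose by 0.38 and its partner SPG7 fell by 0.18; the call of SPG7 was lost whichever library was left out (0.0629 to 0.153). TRAP1, the mitochondrial HSP90, was at 13.7 ± 0.142 and 13.8 ± 0.449 FPKM. Among 9 genes known to be induced by HSF1, 3 rose and 1 fell, 44.4% against 23.1% of all genes (median −0.08). Besides AHSA1, the collagen chaperone gene SERPINH1 (0.30, adjusted p = 0.0057) and FKBP4 (0.18, adjusted p = 0.0448) rose. FKBP4 lost its call whichever library was left out (0.0598 to 0.136). BAG3, a sensitive target of HSF1 named after its value was seen, was at 23.7, 24.1 and 24.2 against 23.3, 22.4 and 22.7 (−0.07, adjusted p = 0.239). Some genes stand in several of these lists, AHSA1 and SIL1 among them.

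**Figure D5:**
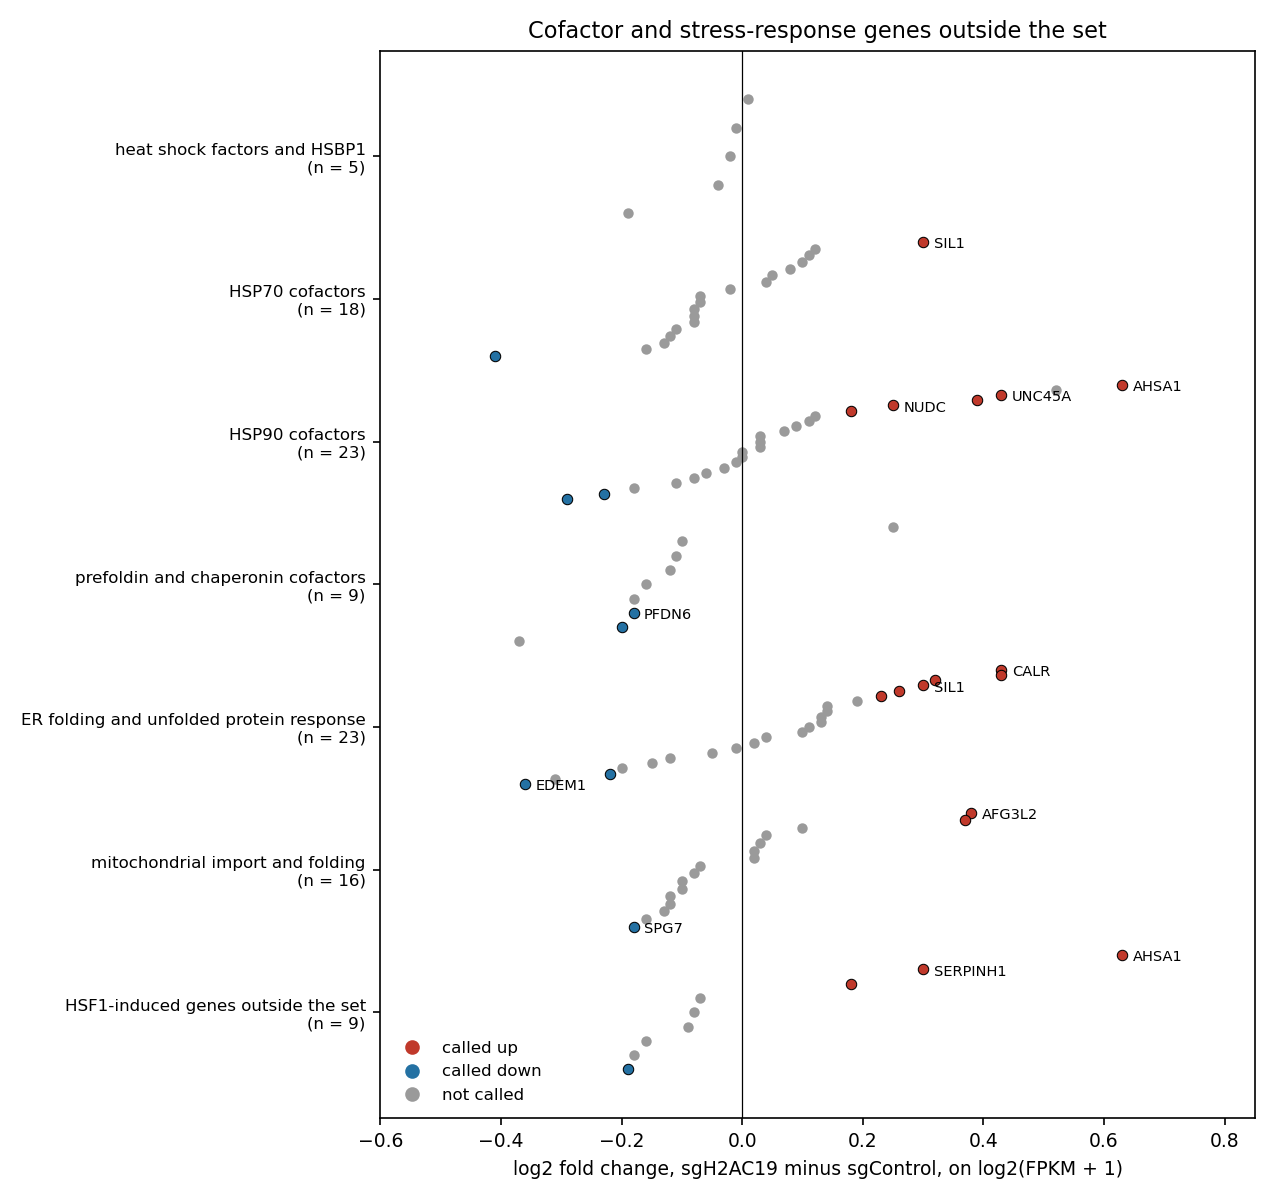
Log2 fold change (x axis, sgH2AC19 minus sgControl on log2(FPKM + 1)) of cofactor and stress-response genes by list (y axis), with called genes coloured and some of those given in the text named. AHSA1 lies furthest right at 0.63, and no heat shock factor gene was called.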

How the data were processed

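The deposited table holds FPKM computed by the authors, 1 column per library, per the file headers. The library kit was SMARTer, per the labels' protocols. Which aligner, counter and annotation were used is not given in the sources used here. The submitters' processing notes list the mouse builds GRCm38 and mm10, although the gene IDs are human. The sgNC columns stand for sgControl and the sgH2AC columns for sgH2AC19. Symbols matched all 62700 IDs, and biotypes came from GENCODE 29. Read totals were recovered from the spacing of values. At GENCODE 29 lengths 15 of the 80 members gave whole reads in all libraries (tolerance 0.01 reads, with 0 counted as whole). With the length of each gene searched for whole reads, 75 of the 75 members above 0 gave them. This follows in part from the search, and the reads given above rest on these lengths.

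The test was limma 3.58.1 (R 4.3.3, mean-variance trend, both sides) on log2(FPKM + 1) of the 12871 genes that reached 1 FPKM in 3 or more libraries. P-values were adjusted over these genes by Benjamini-Hochberg, with 0.05 as the threshold. This scale understates changes of low genes. All adjusted p-values are from limma. The fit was tested on simulated data. No correction for composition was made in the main values. Per-library values are given for every called member and the 2 most abundant members of each family. Of each cofactor list up to 4 called genes with the smallest adjusted p are named, and HSF1 always, except that 2 such genes are counted but not reported here. Other genes outside the set were chosen after their values were seen. The members and lists were chosen with earlier results of these data known. Alternatives were 2 scalings, 2 filters, a pseudocount of 0.1, a replicate block and leaving out each library. Figures used matplotlib 3.10.9.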

Additional observations from a re-analysis of the deposited data

How the results depend on the processing

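The 12 alternatives moved counts more than fold changes, and 0 named results changed direction where called. Of the 10 called members, HSPD1, CCT5 and DNAJC1 kept their calls throughout and 7 lost theirs in at least 1 alternative; 12 uncalled members passed in at least 1. With median-ratio or upper-quartile scaling 5 members were called down under either, in place of 3. With all genes above 0 FPKM 1553 genes were called, with 4 members up and 1 down. Leaving out each library gave 1513 to 3429 genes called, 3 to 11 members up and 0 to 4 down; the 0 arose without sgControl replicate 2. Same-numbered libraries deviated together only weakly from their group means (r = 0.0524, 0.0346 and 0.0602 over 12871 genes), although each correlated best with its own number, so the numbers were not taken as pairs. With the replicate block 2729 genes were called, with 8 members up and 3 down. There DNAJB9 (adjusted p = 0.00737), DNAJC3 (0.0251), DNAJB11 (0.0418) and HSPBAP1 (0.0205) passed and DNAJB1 (0.0651), DNAJB12 (0.0542) and DNAJC24 (0.0982) did not. Among cofactors named, VBP1 and SPG7 lost their calls with the block (0.0511 and 0.0883), and so did the neighbour TECR (0.0722). With all genes above 0 FPKM NUDC, SIL1, VBP1, PFDN6, SPG7 and FKBP4 lost theirs (0.053 to 0.118), as did the neighbours BUD23, TECR and PNPLA8 (0.0568, 0.0951 and 0.0799). With median-ratio scaling PFDN6, SPG7 and FKBP4 did (0.0567, 0.0503 and 0.0505), and with upper-quartile scaling PFDN6 and SPG7 (0.0541 and 0.0508). The cause of these shifts was not tested. Members that did not reach 1 FPKM in 3 libraries were not tested.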
